A study of Mus musculus with 4 samples.

Results

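The Mediator kinase module comprises 6 of the 32285 genes counted in draining lymph node cells of wild-type C57BL/6 mice, namely Cdk8, Cdk19, Ccnc, Med12, Med13 and Med13l. They were taken by name, and their UMIs (unique molecular identifiers, one for each captured mRNA molecule) were summed per library in 5 classes of cells gated on marker genes. Mediator carries signals from transcription factors bound at enhancers to RNA polymerase II, and the kinase module is a detachable part of it that can block or tune this contact. Its catalytic subunit is CDK8 or the closely related paralog CDK19, which needs cyclin C (Ccnc) as partner and MED12 as activator, while MED13 or MED13L tethers the module to the core complex. In T cells, inhibition of CDK8 and CDK19 is known to favour expression of Foxp3, the transcription factor that defines regulatory T cells (Tregs). The comparison asked whether the 5 partners followed Cdk8 when mice had been given vesicles of pluripotent stem cells.

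The 4 libraries came from 2 samples of control mice and 2 samples of mice that had been injected under the skin with 100 µg of human iPSC EVs, the small membrane vesicles shed by induced pluripotent stem cells. The design text of the series places the collection of the nodes 5 days after injection, whereas the sample labels record a duration of 24 h. The published methods describe PBS injections for the controls, which the labels call untreated. The age and sex of the mice, and whether nodes of several mice were pooled, are not given in the sources used here, and the study calls the 2 samples of a group biological replicates. After filtering on genes, UMIs and mitochondrial share, 32725 of 34323 barcodes were kept, with a median of 5502 to 6639 UMIs per cell in the 4 libraries. Libraries shared between 11 and 24 cell barcodes in each pair, at most 0.294% of the cells of a library.

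The B cell gate (Cd79a without CD3 genes) held 14119 cells, the CD4+ T cell gate 5580, the CD8+ T cell gate 6101, the Treg gate (Foxp3 with CD3 genes) 691 and the macrophage gate (C1qa and C1qb without CD3 genes) 274. Marker genes that the gates did not use, or used only in part, followed the names. Summed over 5 B cell markers such as Pax5 and Ms4a1, the level was 6469 to 7888 in the B cell gate, given in CPM (UMIs after scaling libraries to the same total), and 12.9 to 19.5 CPM in the CD4+ T cell gate. The Treg list, with Il2ra, Ikzf2 and Ctla4 beside Foxp3, summed to 3266 to 3807 CPM in the Treg gate and 389 to 460 CPM in the CD4+ T cell gate, with which the Treg gate shares cells. B cell markers summed to 492 and 94.9 CPM in the Treg gate of the controls and to 488 and 561 CPM in that of the EV libraries. The macrophage gate was the weakest. It contained 41 and 77 control cells and 90 and 66 EV cells, its macrophage markers were lower in the EV libraries (18868 and 16486 CPM in controls, 11971 and 9015 CPM with EVs) and its B cell markers were higher (1651 and 1601 CPM in controls, 3033 and 3439 CPM with EVs).

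One library stood apart. EV library 2 had little of Gm42418, a transcript that lies over the ribosomal RNA repeat and takes up ribosomal RNA reads in mouse data, with 839 CPM over all its cells against 8691 and 9948 CPM in the controls and 5682 CPM in EV library 1. The mitochondrial share was 3.13% and 3.04% in the controls, 3.31% in EV library 1 and 3.64% in EV library 2. The fold changes, ratios, levels and likeness of Cdk8 are therefore given with and without EV library 2.

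The miR-302 family, which is abundant in pluripotent stem cells and was raised by the study in connection with CDK8 and CDK19, is shown here because a microRNA pairs with its targets through the seed, bases 2 to 8 of its mature strand, which the capitals mark. The vesicles were human, and the study gave its miR-302 mimics to human CD4+ T cells. In those cells it reported lower CDK8 and CDK19 by qPCR, with the mimics as with iPSC EVs. Its figure legend gives significance for CDK8. Only mouse microRNAs and mouse 3′ UTRs were searched here. The study found miR-302a and miR-302d most abundant in the vesicles, and miR-302a was not among the sequences searched. The 3 mouse members matched in RefSeq (GRCm38.p6, chromosome 3, plus strand, bases 127545275 to 127545687) differ in seed register, with miR-302b and miR-302d sharing a seed and miR-302c shifted by a base.
mmu-miR-302b-3p: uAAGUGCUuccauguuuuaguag
mmu-miR-302d-3p: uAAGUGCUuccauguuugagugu
mmu-miR-302c-3p: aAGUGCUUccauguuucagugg

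The complements of these seeds, AGCACTT for miR-302b and miR-302d and AAGCACT for miR-302c, were searched on the transcript strand in the longest annotated 3′ UTR of each gene (GENCODE M21, GRCm38). The letters AGCACTT occur in 14.7% and AAGCACT in 12.5% of the 3′ UTRs of 21022 genes, and 1 stretch can hold both, since the words overlap. Cdk8 held neither word in its 1173 bases, nor did Ccnc (2452 bases), Med12 (235 bases) or Med13l (2605 bases). Cdk19 held 3 matches in 4015 bases and Med13 1 match in 3953 bases. Both 3′ UTRs are longer than those of most genes, with 93.2% and 92.9% of genes having a shorter one. The matched letters are in capitals in the following windows, named by gene and by the position of the match in the 3′ UTR. A match is no evidence of a site in use, and a missing word says only that these letters are not in that window.
Cdk19, position 244: ctgatctacccAGCACTTctgcatccttc
Cdk19, position 424: tgcaccttttaAAGCACTccacagtctcc
Cdk19, position 2094: gtctgtgtctgAGCACTTgaggagaaagc
Med13, position 3098: gatctttaatcAAGCACTatgttaatact

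Of the catalytic subunits, Cdk8 (ENSMUSG00000029635, chromosome 5, 146231230 to 146302874, plus strand, GRCm38) was lower in both EV libraries than in both control libraries in every class. In CD8+ T cells, control libraries 1 and 2 had 750 and 451 CPM and EV libraries 1 and 2 had 259 and 90.8 CPM. This was the 1 difference of the module that passed the test (log2 fold change −1.78, SE 0.36, 95% interval −2.57 to −0.996, adjusted p = 0.035 by edgeR's quasi-likelihood test). The EV mean was 29.2% of the control mean, and the spread inside each group was wide, with 600 ± 211 CPM in controls and 175 ± 119 CPM with EVs (SD, n = 2).

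CD4+ T cells gave the same order of libraries, with 812 and 470 CPM of Cdk8 in controls and 262 and 83.2 CPM with EVs (log2 fold change −1.90, SE 0.41, edgeR adjusted p = 0.055). Every EV value was below every control value here too, and the adjusted p lay just over the threshold of 0.05. B cells had 716 and 410 CPM in controls and 260 and 89.8 CPM with EVs (log2 fold change −1.69, SE 0.43, edgeR adjusted p = 0.098). The 6 macrophage markers in that gate were at 39.0 and 39.6 CPM in controls and at 78.2 and 55.0 CPM with EVs, and their part was not tested. Tregs had 718 and 452 CPM against 250 and 113 CPM (log2 fold change −1.70, SE 0.29, edgeR adjusted p = 0.085). Neither of these passed, although the 95% intervals, −2.68 to −0.69 in B cells and −2.33 to −1.06 in Tregs, lay below 0. In macrophages the sums rested on 83 and 71 UMIs in controls and 63 and 14 UMIs with EVs, which gave 1452 and 499 CPM against 264 and 72.4 CPM (log2 fold change −2.45, SE 0.55, edgeR adjusted p = 0.21). As given above, the EV libraries of that gate also had more of the B cell markers and less of the macrophage markers, and the part of these in the Cdk8 values was not tested.

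The libraries of a group also differed. Control library 1 held more Cdk8 than control library 2 in all 5 classes, and EV library 1 more than EV library 2. When EV library 2 was left out, Cdk8 had a log2 fold change of −1.21 in CD8+ T cells, −1.28 in CD4+ T cells, −1.12 in B cells, −1.22 in Tregs and −1.78 in macrophages. When EV library 1 was left out, it was −2.72, −2.93, −2.65, −2.38 and −3.65 in the same order. The adjusted p was under 0.05 in each of these 10 fits, the highest being 0.012 by edgeR for macrophages without EV library 2, but the single EV library in them is assumed to vary as the controls do. With DESeq2 in place of edgeR none of the 5 classes passed, and the lowest adjusted p was 0.17 in Tregs. The treatment of intronic reads in the counts is not given in the sources used here, so the UMIs of Cdk8 may include unspliced RNA, whose part was not tested.

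**Figure D1:**
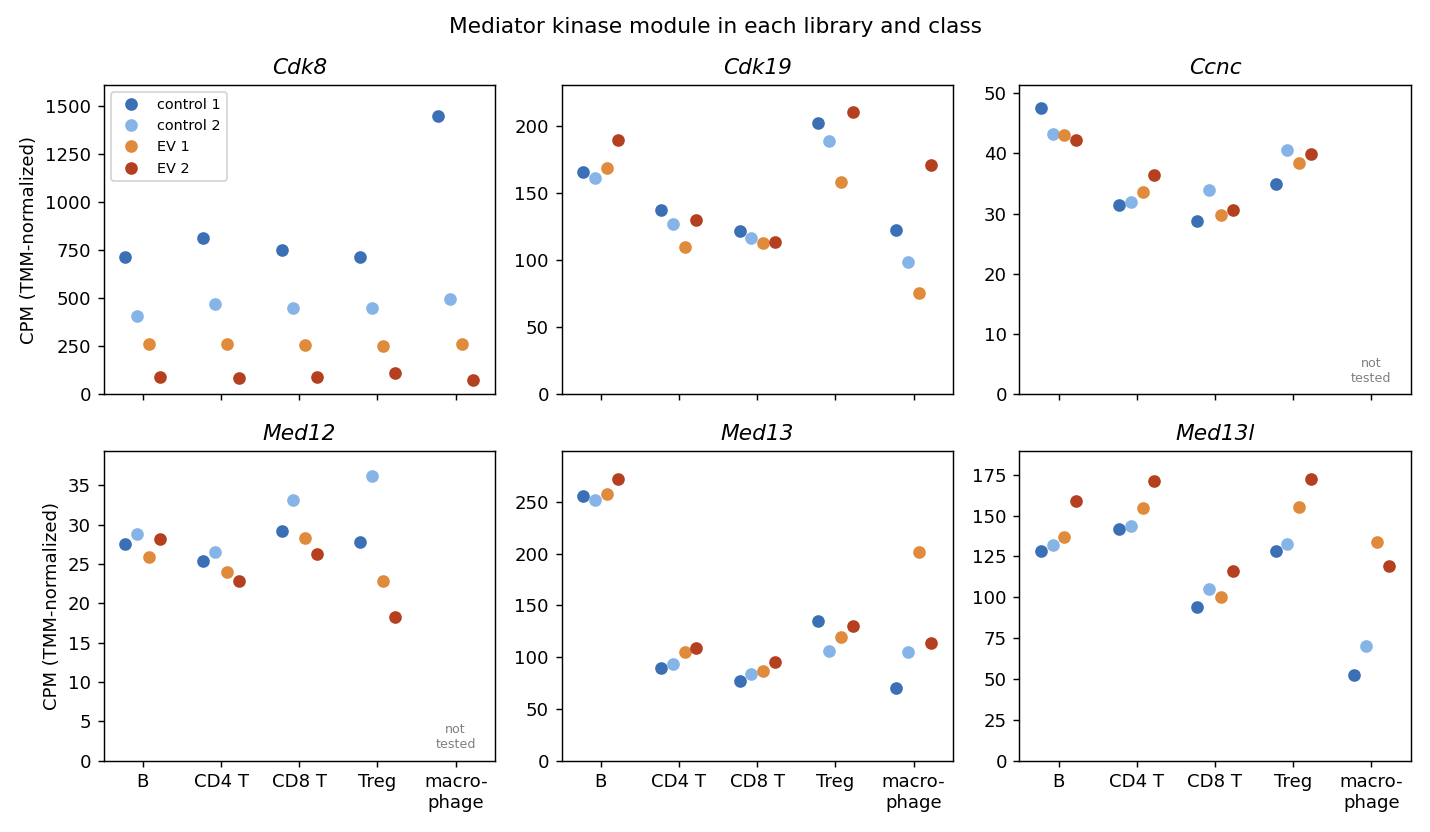
TMM-normalized CPM (vertical axes, linear from 0) of the 6 members in the 5 classes (horizontal axes), 1 point for each library. Cdk8 steps down from control library 1 (716 CPM in B cells) to EV library 2 (89.8 CPM) in every class. The points of the 5 partners lie close together in B cells, CD4+ T cells and CD8+ T cells. They spread more in macrophages and for some partners in Tregs, where Med12 runs from 18.2 to 36.2 CPM.

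Cdk19 (ENSMUSG00000038481, chromosome 10, 40339564 to 40483818, plus strand) is the paralog that can replace CDK8 in the module. Its level was 122 and 117 CPM in control CD8+ T cells and 113 and 114 CPM with EVs. The groups did not overlap, but the log2 fold change was −0.08 (SE 0.08, 95% interval −0.25 to 0.09, edgeR adjusted p = 0.63). In CD4+ T cells the libraries overlapped, with 137 and 127 CPM in controls and 110 and 130 CPM with EVs (log2 fold change −0.14, SE 0.10, edgeR adjusted p = 0.51). B cells had 165 and 161 CPM in controls and slightly more with EVs, 169 and 190 CPM (log2 fold change 0.13, SE 0.09, edgeR adjusted p = 0.49). In none of these 3 classes did the 95% interval reach below −0.37. Tregs ran from 158 to 211 CPM and macrophages from 75.4 to 171 CPM, and in both the groups overlapped.

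With Cdk8 low and Cdk19 near its control level, the make-up of the kinase pair in UMIs differed. Cdk8 supplied 85.99% and 79.4% of the UMIs of the pair in control CD8+ T cells, and 69.7% and 44.4% with EVs. In CD4+ T cells the values were 85.5% and 78.7% against 70.6% and 39.0%, and in B cells 81.2% and 71.8% against 60.6% and 32.2%. In EV library 2 Cdk19 therefore gave more UMIs than Cdk8 in all 5 classes. These are shares of captured 3′ tags, which depend on the capture of each RNA, and give neither mRNA nor protein stoichiometry.

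Ccnc (ENSMUSG00000028252, chromosome 4, 21727701 to 21759922, plus strand) encodes cyclin C, without which neither kinase is active. It had 31.4 and 31.9 CPM in control CD4+ T cells and 33.6 and 36.4 CPM with EVs (log2 fold change 0.15, SE 0.10, edgeR adjusted p = 0.50). B cells went the other way by a small margin, with 47.5 and 43.2 CPM in controls and 43.0 and 42.2 CPM with EVs (log2 fold change −0.09, SE 0.09, edgeR adjusted p = 0.63). The groups overlapped in CD8+ T cells (28.7 to 33.9 CPM) and in Tregs (34.9 to 40.5 CPM). In macrophages Ccnc had 3 to 9 UMIs per library and did not pass the filter on low counts.

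Med12 (ENSMUSG00000079487, chromosome X, 101274030 to 101297465, plus strand), the activator of the kinase, had a negative log2 fold change in all 4 classes in which it was tested, and none of them passed. In Tregs, controls had 27.8 and 36.2 CPM and EV libraries 22.9 and 18.2 CPM (log2 fold change −0.63, SE 0.29, 95% interval −1.26 to −0.0036, edgeR adjusted p = 0.68). These Treg sums held only 47, 50, 25 and 21 UMIs. In CD8+ T cells the values were 29.2 and 33.1 CPM against 28.3 and 26.3 CPM (log2 fold change −0.20, SE 0.10, edgeR adjusted p = 0.34). CD4+ T cells showed 25.4 and 26.5 CPM against 23.9 and 22.8 CPM (log2 fold change −0.15, SE 0.11, edgeR adjusted p = 0.51). The groups overlapped in B cells (25.9 to 28.8 CPM), and with 1 to 4 UMIs per library Med12 was not tested in macrophages.

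Med13 (ENSMUSG00000034297, chromosome 11, 86267033 to 86357602, minus strand) and its paralog Med13l (ENSMUSG00000018076, chromosome 5, 118560679 to 118765438, plus strand) encode the subunits that dock the module on Mediator. Their values leaned upward with EVs. Med13 in CD4+ T cells had 89.3 and 93.5 CPM in controls and 105 and 109 CPM with EVs (log2 fold change 0.23, SE 0.09, 95% interval 0.04 to 0.42, edgeR adjusted p = 0.22). Med13l in the same cells had 142 and 144 CPM in controls and 155 and 171 CPM with EVs (log2 fold change 0.19, SE 0.09, edgeR adjusted p = 0.31). Neither passed, and every EV value lay above every control value.

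In CD8+ T cells Med13 had 77.4 and 83.4 CPM against 86.3 and 95.7 CPM (log2 fold change 0.18, edgeR adjusted p = 0.29), while Med13l overlapped between groups (93.7 to 116 CPM). In Tregs this was reversed, with Med13 overlapping (106 to 135 CPM) and Med13l at 128 and 132 CPM in controls and 156 and 173 CPM with EVs (log2 fold change 0.33, SE 0.15, edgeR adjusted p = 0.67). B cells had 255 and 252 CPM of Med13 in controls and 258 and 272 CPM with EVs, and 128 and 132 CPM of Med13l in controls against 137 and 159 CPM. The B cell log2 fold changes were 0.06 for Med13 and 0.18 for Med13l (edgeR adjusted p = 0.76 and 0.36). Macrophages had the highest values, 0.77 for Med13 and 0.97 for Med13l, on control sums of 3 to 15 UMIs (edgeR adjusted p = 0.65 and 0.57). The EV libraries of the macrophage gate also had more of the B cell markers, and the part of this in these values was not tested. Without EV library 1, the log2 fold changes were 0.22 for Cdk19 and 0.29 for Med13l in B cells. They were 0.26 for Med13 and 0.27 for Med13l in CD4+ T cells, and 0.25 for Med13 in CD8+ T cells. These values rest on EV library 2 as the single EV library. Without EV library 2 they were 0.04, 0.07, 0.21, 0.12 and 0.10 in the same order.

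**Figure D2:**
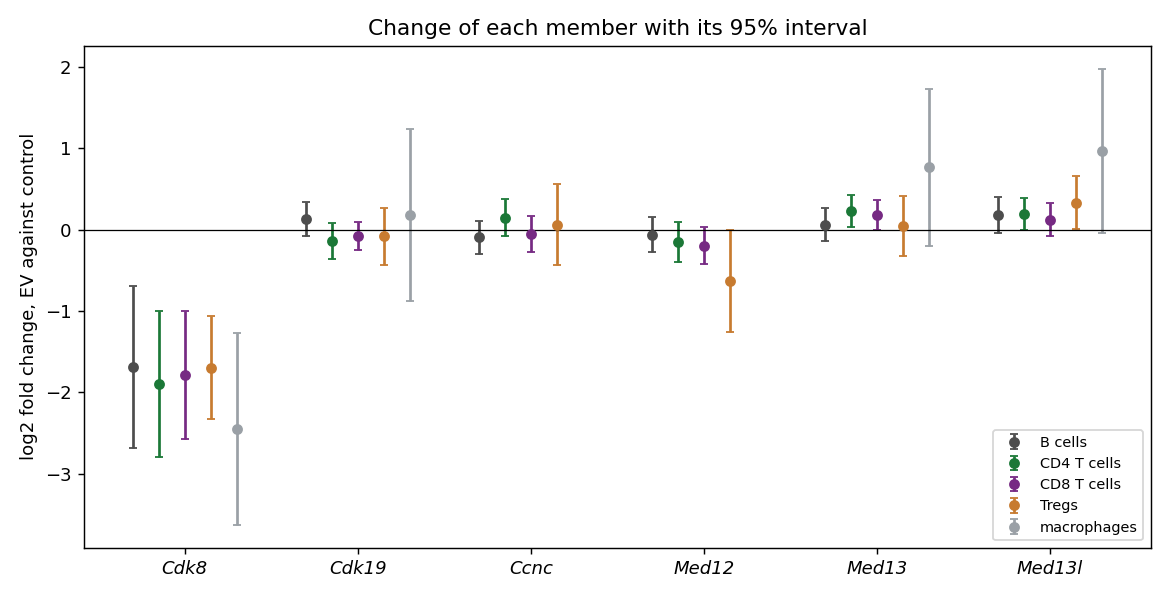
Log2 fold change of EV against control (vertical axis) of each member (horizontal axis) in the 5 classes, with 95% intervals as bars. Cdk8 lies between −1.69 and −2.45 in the 5 classes with every interval below 0, and the partners lie between −0.63 and 0.33 outside the macrophage gate.

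Counted over the module, 1 of 6 members was called in CD8+ T cells, where 1.65% of 12355 genes tested were called, and 0 of 6 in CD4+ T cells (1.31% of 12057 genes), 0 of 6 in B cells (1.58% of 13127 genes), 0 of 6 in Tregs (0.0111% of 8974 genes) and 0 of the 4 tested in macrophages (0.0289% of 3465 genes). At an unadjusted p under 0.05 by edgeR the counts were 1 in CD8+ T cells, 2 in CD4+ T cells, 1 in B cells, 3 in Tregs and 1 in macrophages, and DESeq2 called 0 in each class. The share of all genes under that unadjusted threshold is not reported here, so these counts and those of this kind below have no background beside them. The EV and control libraries did not overlap for 5 of 6 members in B cells and in CD4+ T cells, 4 in CD8+ T cells, 3 in Tregs and 3 of 4 in macrophages. Over all genes tested the same held for 51% in B cells, 49.7% in CD4+ T cells, 49.8% in CD8+ T cells, 37.1% in Tregs and 40.6% in macrophages, so for single partners a lack of overlap was common in these libraries.

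The partners were set against Cdk8 directly as the log2 ratio of their UMIs within a library, which does not depend on library size. The ratio of Cdk8 to Cdk19 in CD4+ T cells was 2.57 and 1.89 in controls and 1.26 and −0.64 with EVs on the log2 scale. The ratio to Ccnc was 4.70 and 3.88 against 2.97 and 1.20, and that to Med13 3.19 and 2.33 against 1.32 and −0.39. In all 25 combinations of 5 partners and 5 classes, both EV libraries had a lower ratio than both controls. Cdk8 itself was lower in both EV libraries in every class, and the same count over all genes was not made. The EV minus control difference was −2.29 to −1.91 in CD4+ T cells, −2.10 to −1.73 in CD8+ T cells, −2.01 to −1.74 in B cells, −2.09 to −1.13 in Tregs and −3.68 to −1.08 in macrophages, where single libraries gave as few as 1 UMI of Med12. Without EV library 2 the differences were smaller, −1.44 to −0.96 in CD4+ T cells, −1.27 to −1.03 in CD8+ T cells, −1.13 to −0.94 in B cells, −1.44 to −0.72 in Tregs and −2.92 to −0.99 in macrophages. Without EV library 1 they were −3.15 to −2.70, −2.93 to −2.44, −2.88 to −2.49, −2.74 to −1.54 and −4.53 to −1.16 in that order. The exact permutation test over libraries (two-sided) gave p = 0.333 for each of the 25, which is the smallest value that 2 against 2 allows, so a p of 0.05 is out of reach. The 25 ratios share the Cdk8 values of each library and are not independent of each other.

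The difference of the EV effect between classes was tested for each member against CD4+ T cells, with classes made free of shared cells and the library as a block. No member passed by edgeR, against 0.968% of 14250 genes called for B cells, 0.154% for CD8+ T cells, 0.147% for Tregs and 0.0491% for macrophages. At an unadjusted p under 0.05 there were 2 members for B cells, 0 for CD8+ T cells, 0 for Tregs and 1 for macrophages. The effect on Cdk8 was 0.25 higher on the log2 scale in B cells than in CD4+ T cells (edgeR adjusted p = 0.32, SE 0.09), 0.15 higher in CD8+ T cells (edgeR adjusted p = 1.0, SE 0.10) and 0.26 higher in Tregs (SE 0.14, edgeR adjusted p = 0.83). For Cdk19 in B cells the difference was 0.28 (SE 0.09, edgeR adjusted p = 0.22). Without EV library 2 no member passed either, and the Cdk8 differences were 0.19 in B cells, 0.08 in CD8+ T cells and 0.09 in Tregs (edgeR adjusted p = 0.71, 1.0 and 0.99).

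Levels were compared between classes in the same way. Over the 4 libraries Med13 averaged 256 ± 9.1 CPM in B cells (SD, n = 4), the highest of the 5 classes, and 104 ± 10.4 CPM in CD4+ T cells (log2 difference 1.29, SE 0.07, edgeR adjusted p = 2.3e-14). It was 115 ± 12.4 CPM in Tregs, 99.5 ± 52.6 CPM in macrophages and 94.1 ± 8.53 CPM in CD8+ T cells, none of which differed from CD4+ T cells past the test. Med13l ran in another order, with 165 ± 13.98 CPM in CD4+ T cells, 138 ± 19.8 CPM in Tregs, 137 ± 13.7 CPM in B cells, 114 ± 10.5 CPM in CD8+ T cells and 76.1 ± 36.3 CPM in macrophages. Each of the other 4 classes was lower in Med13l than CD4+ T cells, with log2 differences of −0.27 in B cells, −0.53 in CD8+ T cells, −0.27 in Tregs and −0.95 in macrophages (edgeR adjusted p = 0.00016, 7.1e-08, 0.00785 and 3.6e-05). B cells and Tregs lay within their spread of each other in Med13l.

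Cdk19 averaged 178 ± 21.5 CPM in Tregs and 169 ± 12.5 CPM in B cells, which lay within their spread of each other, followed by 131 ± 11.9 CPM in CD4+ T cells, 128 ± 5.13 CPM in CD8+ T cells and 91.9 ± 32.6 CPM in macrophages. Tregs were above CD4+ T cells by 0.44 and B cells by 0.37 on the log2 scale, and macrophages below by 0.49 (edgeR adjusted p = 0.00015, 1.6e-05 and 0.039). Ccnc was highest in B cells at 43.3 ± 2.25 CPM, against 35.0 ± 1.97 CPM in CD4+ T cells (log2 difference 0.31, edgeR adjusted p = 0.00052), and the other 3 classes, from 27.7 to 35.9 CPM on average, did not differ from CD4+ T cells past the test. Med12 was highest in CD8+ T cells, 32.2 ± 3.16 CPM against 26.3 ± 1.69 CPM (log2 difference 0.29, edgeR adjusted p = 0.0052), and lowest in macrophages (14.96 ± 8.40 CPM, log2 difference −1.01, edgeR adjusted p = 0.039), a call that was lost without EV library 2 (−0.62, edgeR adjusted p = 0.31).

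Cdk8 itself averaged 441 ± 345 CPM in CD4+ T cells, 427 ± 311 CPM in CD8+ T cells, 425 ± 421 CPM in macrophages, 363 ± 262 CPM in B cells and 358 ± 246 CPM in Tregs, where the SD holds the distance between the libraries. With the library as a block only B cells differed from CD4+ T cells, by −0.21 on the log2 scale (SE 0.07, edgeR adjusted p = 0.016). In all, 5 of 6 members were called between B and CD4+ T cells (65.2% of 13694 genes), 2 for CD8+ T cells (27.6%), 2 for Tregs (24.9%) and 3 for macrophages (39%). Without EV library 2 the Cdk8 means were 559 ± 309, 535 ± 272, 547 ± 420, 455 ± 229 and 442 ± 220 CPM in the same order (SD, n = 3). Tregs were then also below CD4+ T cells, by −0.30 on the log2 scale beside −0.29 for B cells (edgeR adjusted p = 0.0195 and 0.0034).

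Other genes of the machinery were taken as 3 lists. The core of Mediator, to which the module docks, had all 26 genes tested in B cells, CD4+ and CD8+ T cells, 24 in Tregs and 6 in macrophages, and edgeR called 0 of them in each class, as did DESeq2. At an unadjusted p under 0.05 there were 2, 5, 6, 0 and 0. The median log2 fold change of the list was 0.02 in B cells, 0.02 in CD4+ T cells and 0.03 in CD8+ T cells, beside 0.00 over all genes. Single values ran from −0.66 to 0.66 over the 5 classes. Med16 had 13.5 and 11.5 CPM in control CD8+ T cells and 9.17 and 6.76 CPM with EVs (log2 fold change −0.66, edgeR adjusted p = 0.084). Other core genes among the 2 largest values of the 3 lists together in a class were Med22 in the same cells (−0.58, edgeR adjusted p = 0.17), Med20 in CD4+ T cells (0.46, edgeR adjusted p = 0.17) and Med9 in Tregs (−0.66, edgeR adjusted p = 0.79).

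The other kinases that act on the tail of RNA polymerase II, with their cyclins (Cdk7, Ccnh, Mnat1, Cdk9, Ccnt1, Ccnt2, Cdk12, Cdk13 and Ccnk), gave 0 of 9 called by edgeR and by DESeq2 in each lymphocyte class and 0 of 5 in macrophages. At an unadjusted p under 0.05 there was 1 of 9 in CD8+ T cells, 1 of 5 in macrophages and 0 in the other 3 classes. The largest value was that of Mnat1, the assembly factor of the CDK7 complex, in macrophages (1.94, edgeR adjusted p = 0.54) on control sums of 1 and 2 UMIs, followed there by Cdk12 (0.70, edgeR adjusted p = 0.78).

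Of the 8 transcription factors listed as substrates of the kinases, Stat3, which carries signals of IL-6 family cytokines, rose in CD4+ T cells from 111 and 122 CPM to 199 and 155 CPM (log2 fold change 0.59, SE 0.12, edgeR adjusted p = 0.044). It also rose in CD8+ T cells, from 104 and 109 CPM to 157 and 134 CPM (log2 fold change 0.45, SE 0.09, edgeR adjusted p = 0.035). In B cells Stat3 had 111 and 120 CPM in controls and 246 and 167 CPM with EVs (log2 fold change 0.83, edgeR adjusted p = 0.051), in Tregs its log2 fold change was 0.59 (edgeR adjusted p = 0.55), and E2f1 in B cells was at 0.67 on sums of 22 to 86 UMIs (edgeR adjusted p = 0.25). Called were 1 of 8 substrates in CD4+ T cells and 1 of 8 in CD8+ T cells, and 0 of 7 in Tregs and 0 of 3 in macrophages, where edgeR gave 1 and 0 at an unadjusted p under 0.05 and DESeq2 called 0. The median log2 fold change of the list was 0.32 in B cells, 0.10 in CD4+ T cells and 0.11 in CD8+ T cells, beside 0.00 over all genes. These are mRNA levels, which do not measure phosphorylation by the module.

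Genes outside the module varied between libraries in the same order as Cdk8, wholly or in part. The rRNA-like list, taken from earlier results of these data, holds Gm42418 and AY036118, which overlap on chromosome 17 (39846958 to 39848788), together with Cmss1, Lars2 and Camk1d. In CD4+ T cells Gm42418 had 8584 and 10045 CPM in controls and 5616 and 728 CPM with EVs. Cmss1 had 3062 and 2375 CPM against 1258 and 141 CPM, and AY036118 had 787 and 633 CPM against 416 and 26.1 CPM. EV library 2 was lowest for all of these, as for Cdk8. Lars2, the mitochondrial leucyl-tRNA synthetase, had 217 and 238 CPM against 158 and 39.8 CPM. Camk1d, a calcium-dependent kinase, had 722 and 691 CPM against 562 and 321 CPM.

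All 5 genes of this list were lower in both EV libraries than in both controls in every class. Over all genes tested the groups did not overlap, in either direction, for 37.1% in Tregs to 51% in B cells. The list was taken from earlier results of these same libraries, so its values and counts are a description and no independent support. None passed the edgeR test in any class, with the lowest adjusted p at 0.089 for Camk1d in CD8+ T cells, while 3 of 5 had an unadjusted p under 0.05 in B cells and 5 of 5 in each other class. DESeq2 called 1 of 5 in Tregs and 0 elsewhere. The list's median log2 fold change was −1.44 in B cells, −1.55 in CD4+ T cells, −1.53 in CD8+ T cells, −1.46 in Tregs and −1.67 in macrophages, beside medians between −0.01 and 0.00 over all genes. Without EV library 2 the median was −0.64 in B cells, −0.73 in CD4+ T cells, −0.71 in CD8+ T cells, −0.81 in Tregs and −1.04 in macrophages, on a single EV library. In the controls, AY036118, Cmss1 and Camk1d were higher in library 1 in every class, like Cdk8. Gm42418 and Lars2 were higher in control library 2 in the 4 lymphocyte classes and in control library 1 in macrophages.

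Set against these genes in place of its partners, Cdk8 gave ratios that overlapped between the groups for Gm42418, AY036118, Cmss1 and Lars2 in all 5 classes. The log2 ratio of Cdk8 to Gm42418 in CD4+ T cells was −3.40 and −4.42 in controls and −4.42 and −3.13 with EVs. The EV minus control difference in these cells was 0.14 for Gm42418, 0.70 for AY036118, 0.61 for Cmss1 and −0.54 for Lars2. In B cells it was 0.18, 0.52, 0.76 and −0.35 in that order. For Camk1d the ratio was lower in both EV libraries in every class, by −1.33 in CD4+ T cells and −1.35 in B cells. Without EV library 2 all of these differences were negative, in CD4+ T cells −0.51 for Gm42418, −0.47 for AY036118, −0.14 for Cmss1, −0.71 for Lars2 and −0.91 for Camk1d. Without EV library 1 the CD4+ T cell differences were 0.78, 1.86, 1.37, −0.38 and −1.75 in the same order of genes. The part of these transcripts in the Cdk8 UMIs was not tested beyond these ratios.

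**Figure D3:**
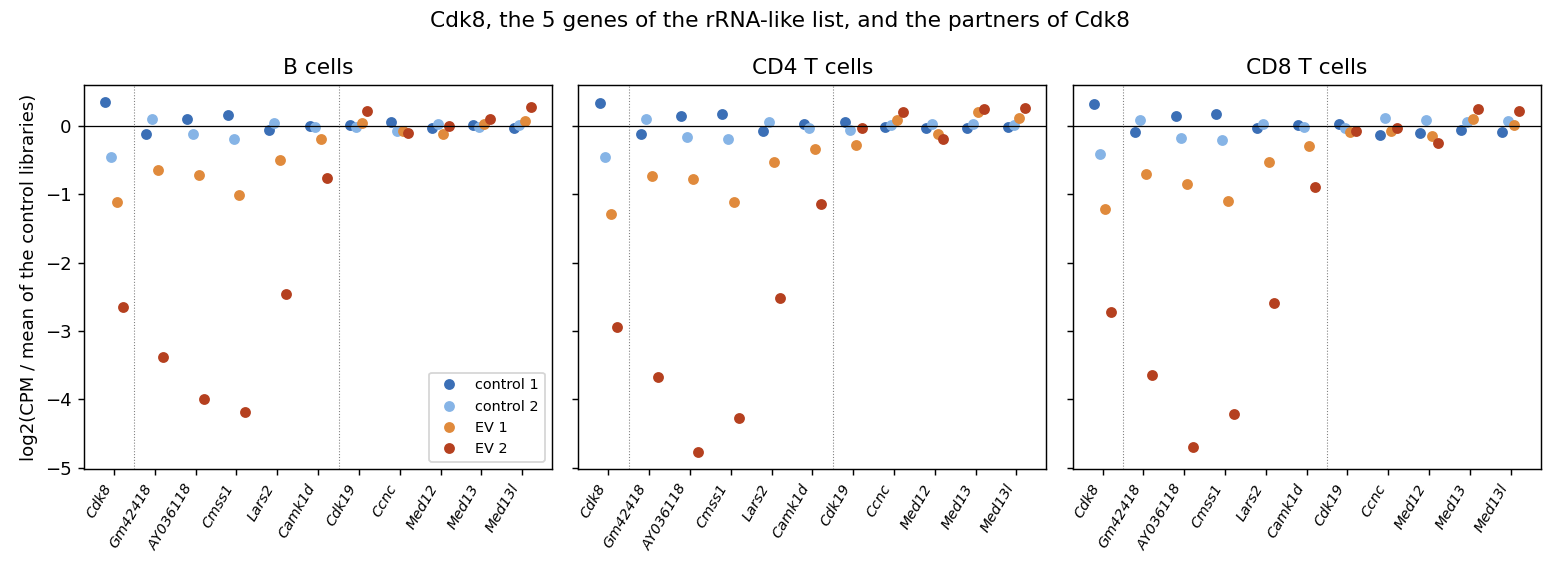
Log2 of the CPM over the mean of the controls (vertical axis) for Cdk8, the 5 genes of the rRNA-like list and the 5 partners (horizontal axis) in B cells, CD4+ T cells and CD8+ T cells, 1 point for each library. EV library 2 is far below the controls for Cdk8 (83.2 CPM in CD4+ T cells) and for Gm42418 (728 CPM), and all 4 libraries lie near 0 for the partners.

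Across the 20 sums of class and library, after each class was set to its own mean, the genes most like Cdk8 among 3402 with at least 50 CPM on average were mt-Nd5 (Pearson r = 0.968), Camk1d (0.962), Cmss1 (0.962), Snrpg (0.955), Cirbp (0.954), Cox7c (0.947), mt-Atp8 (0.945), Lars2 (0.935), Hist1h1e (0.933) and Gm42418 (0.933). AY036118 came 11th. With all 4 libraries the partners were far down this order, with Cdk19 at rank 1789 (r = −0.30), Med13 at rank 2388 (r = −0.46) and Med13l at rank 3190 (r = −0.70). Ccnc (r = 0.39) and Med12 (r = 0.66) lay under 50 CPM and were not ranked. Without EV library 2, 3 of these 10 genes (Cmss1, mt-Atp8 and mt-Nd5) were again among the 10 most like Cdk8, Gm42418 came at rank 51 (r = 0.80) and Lars2 at rank 52 (r = 0.80). The place of Cdk19 rested on that library, since without it Cdk19 came at rank 29 (r = 0.85), whereas Med13 (rank 2667, r = −0.60) and Med13l (rank 2924, r = −0.66) stayed far down. The 20 points come from only 4 libraries and share their depth and composition, so these values are a description.

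The genes most like each partner were others again. They included Eif3j1 (0.892) and Spata5 (0.884) for Cdk19, Scaf4 (0.945), Icos (0.944) and Micu2 (0.943) for Ccnc, and Wdr89 (0.944), Zfas1 (0.914) and Pak1ip1 (0.905) for Med12. Med13 was nearest to Psmd4 (0.968), Rif1 (0.965) and Chm (0.963), and Med13l to Cept1 (0.979), Kif5b (0.975) and Actr3 (0.973).

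Cells of 1 library were also ordered by the Gm42418 share of their UMIs, split into 3 groups of equal size and summed. In CD4+ T cells of control library 1, Cdk8 was 588 CPM in the lowest group, 810 CPM in the middle and 1090 CPM in the highest, and in control library 2 it was 381, 466 and 563 CPM. EV library 1 had 212, 252 and 316 CPM. EV library 2, where Gm42418 ran only from 286 to 1284 CPM, had 71.4, 92.0 and 86.9 CPM. The highest group of EV library 1 (Gm42418 at 8205 CPM) held less Cdk8 than the lowest group of control library 1 (Gm42418 at 5212 CPM) or of control library 2 (6297 CPM).

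The same held in B cells and in CD8+ T cells, where the highest group of EV library 1 had 310 and 309 CPM of Cdk8 and the lowest group of control library 2 had 332 and 366 CPM. In the 9 combinations of 3 libraries other than EV library 2 and 3 classes, the highest group had 1.44 to 1.85 times the Cdk8 level of the lowest. For Cdk19 this ratio was 0.84 to 0.98, for Med13 0.74 to 0.97 and for Med13l 0.78 to 1.01. It ran from 0.78 to 1.53 for Ccnc and from 0.72 to 1.27 for Med12, each above 1 in 2 of the 9, and the 1.53 of Ccnc lies within the range of Cdk8. In EV library 2 it was 1.09 to 1.22 for Cdk8. Cells of 1 library are not replicates, so no test was made of these groups. A larger Gm42418 share by itself lowers the share left for other genes. Gm42418 took up to 14858 CPM in these groups, and its part in the other values was not tested. In the 9 combinations the highest group also had fewer UMIs per cell than the lowest. In CD8+ T cells of control library 2 the medians were 7830.5 and 9106. EV library 2 went the other way, with 9081 and 8927 in the same cells. The part of depth was not tested either.

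**Figure D4:**
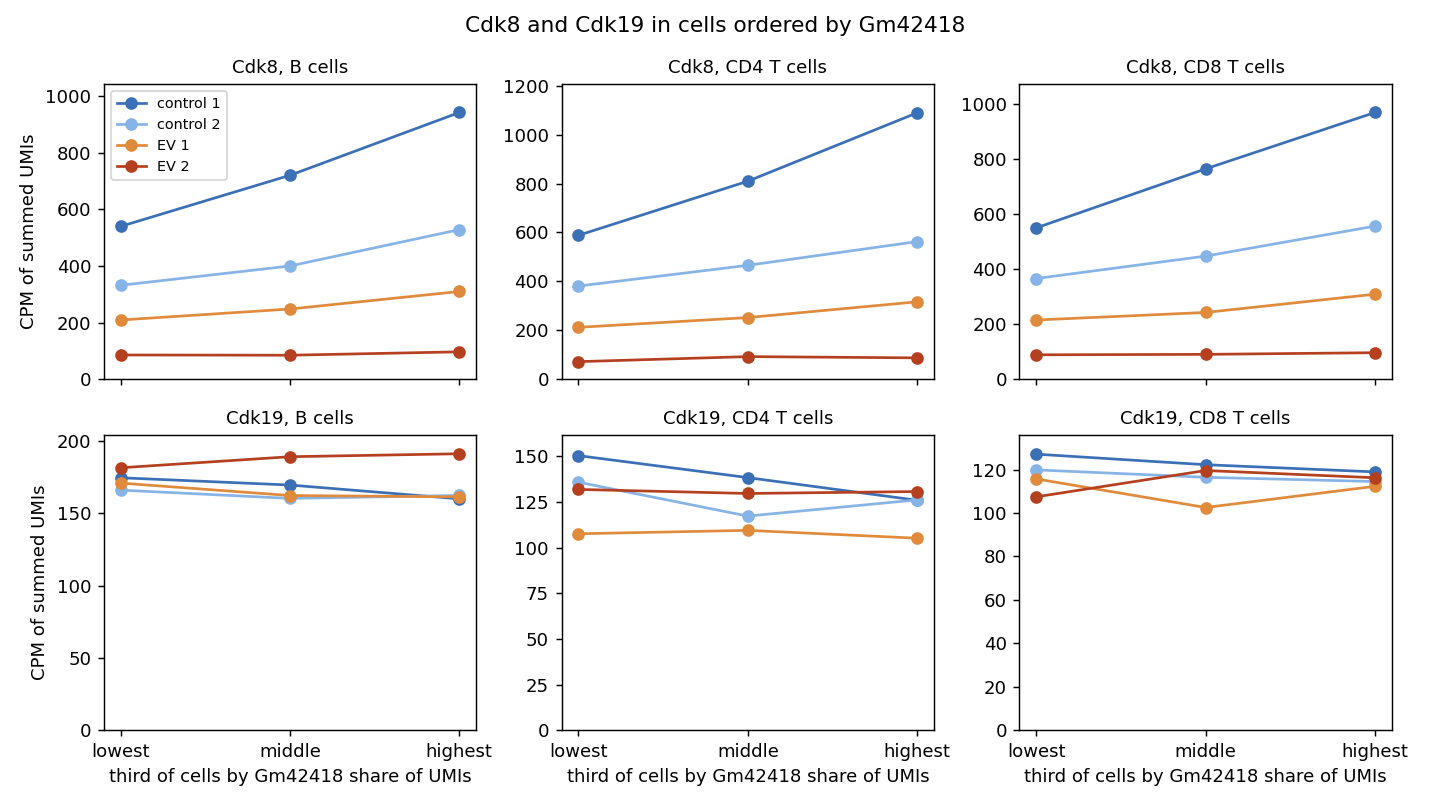
CPM (vertical axes, linear from 0) of Cdk8 and Cdk19 in cells of each library split into 3 groups of equal size by their Gm42418 share of UMIs (horizontal axes), in B cells, CD4+ T cells and CD8+ T cells. Cdk8 climbs from the lowest to the highest group in 3 libraries (588 to 1090 CPM in CD4+ T cells of control library 1) and is almost level in EV library 2 (71.4 to 86.9 CPM), and Cdk19 shows no such climb.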

How the data were processed

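Single-cell RNA sequencing (10x 3′ v3.1) was done on 4 lymph node samples, 2 per group. The authors deposited raw UMI counts per gene and barcode, made with Cell Ranger 7.1.0 on mm10 (submitters' processing notes). The annotation release and the treatment of intronic reads are not given in the sources used here. Cells with 200 to 5000 genes, at most 20000 UMIs and under 10% mitochondrial UMIs were kept, and doublets were not removed. The gates for B cells, CD4+ T cells and CD8+ T cells left out cells with both Cd79a and CD3 UMIs. The Treg gate kept such cells. Cd79a UMIs were found in 30 of 240 and 13 of 185 Treg-gate cells of the controls, and with EVs in 26 of 127 and 18 of 139. The macrophage gate shared 5, 10, 20 and 16 cells with the B cell gate, libraries in the same order. Gates needed at least 1 UMI of the marker, and 2 of C1qa and C1qb together for macrophages. Class totals were 69059 to 29768392 UMIs per library. The study tested cells by a Wilcoxon test. Here the counts of each class in a library were added up and tested with edgeR 4.0.16 (R 4.3.3; TMM, filterByExpr, quasi-likelihood, two-sided, Benjamini-Hochberg over all genes, threshold 0.05), and CPM in the EV and class comparisons are TMM-normalized, while marker sums, values over all cells of a library and values of cells grouped by Gm42418 are CPM of the summed raw counts. The SE is the log2 fold change over the root of F, and intervals use the fitted degrees of freedom. Levels and effects between classes used disjoint classes and the library as a block. Likeness used log2(CPM + 1). Named genes were the members, the rRNA-like list, called genes of the other lists and their largest 2 values per class, and the genes most like each member. Some results that this rule takes are not reported here. The members and lists were chosen with earlier results of these data known. Alternatives were DESeq2 1.42.0, no filterByExpr, RLE factors, library sizes without ribosomal protein, mitochondrial, heat shock and rRNA-like genes, thinning of cells to 1000 UMIs, a replicate block, a stricter gate, a mitochondrial limit of 5% without upper limits on genes or UMIs, and each library left out. Leaving out EV library 2 from the comparisons between classes, the class levels, the rRNA-like list and the likeness was added after seeing the data. The script was tested on simulated data.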

Additional observations from a re-analysis of the deposited data

Results flagged for a closer look

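For Cdk19, both EV libraries lay above both controls in B cells and below both in CD8+ T cells. Over all genes tested, a lack of overlap in either direction held for 51% in B cells and 49.8% in CD8+ T cells. The log2 fold changes were 0.13 (95% interval −0.08 to 0.35) and −0.08 (−0.25 to 0.09), which differ by 0.21. Each interval spans both signs. The difference between these 2 classes was not tested, and neither effect passed the edgeR test within its class.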

How the results depend on the processing

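The Cdk8 log2 fold change kept its direction in all 5 classes under every alternative, but its side of the threshold varied, and the cause was not tested. In CD8+ T cells the call was lost with DESeq2 (−1.77, adjusted p = 0.41, 0 members called) and with the other cell filter (−1.79, adjusted p = 0.057, 0 members called). Elsewhere Cdk8 passed, and 1 member was called, without filterByExpr (B cells −1.64, CD4+ T cells −1.90, Tregs −1.69, macrophages −2.23), after thinning to 1000 UMIs (B cells −1.70, CD4+ T cells −1.96, Tregs −1.56) and, in CD4+ T cells, with the stricter gate (−1.96). With each library left out in turn it was −2.65 to −1.12 in B cells, where it did not pass without control library 1 (adjusted p = 0.084), −2.93 to −1.28 in CD4+ T cells, −2.72 to −1.21 in CD8+ T cells, −2.38 to −1.22 in Tregs and −3.65 to −1.54 in macrophages. The members called were then 0 to 3 in B cells, 1 to 3 in CD4+ T cells, 1 to 2 in CD8+ T cells and 1 in Tregs and in macrophages.

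Whether the replicate numbers of the labels pair the samples cannot be settled with 2 libraries per group. The deviations of same-numbered samples correlated at r = −0.00 in B cells, 0.06 in CD4+ T cells, −0.01 in CD8+ T cells, −0.07 in Tregs and 0.14 in macrophages. With the replicate block Cdk8 was at −1.82 in B cells, −2.05 in CD4+ T cells, −1.91 in CD8+ T cells, −1.75 in Tregs and −2.58 in macrophages, 1 member was called in each class, and 750, 785, 993, 4 and 3 genes were called in the same order of classes.

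The number of genes called was 207 in B cells, 158 in CD4+ T cells, 204 in CD8+ T cells, 1 in Tregs and 1 in macrophages. Without filterByExpr it was 1101, 823, 831, 152 and 65 in that order. DESeq2 called 418 in B cells and 23 in Tregs, and the other cell filter gave 559 in B cells, 0 in Tregs and 0 in macrophages. Thinning gave 104 in CD4+ T cells, 84 in CD8+ T cells, 15 in Tregs and 0 in macrophages, and the stricter gate 446 in CD4+ T cells, 342 in CD8+ T cells and 0 in macrophages. Leaving out a library gave 152 to 2352 in B cells, 105 to 2020 in CD4+ T cells, 132 to 1543 in CD8+ T cells, 25 to 84 in Tregs and 23 to 86 in macrophages.

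Partner values near 0 turned sign in places. After thinning, Ccnc in B cells was 0.046, Med13l in CD8+ T cells −0.051 and Cdk19 in Tregs 0.50, and Med13 in Tregs was −0.028 with the other cell filter and −0.18 with the stricter gate. With a library left out, Med12 in B cells ran from −0.125 to 0.0014, Ccnc in CD8+ T cells from −0.16 to 0.077, Cdk19 in Tregs from −0.30 to 0.11, Ccnc in Tregs from −0.052 to 0.17, Med13 in Tregs from −0.11 to 0.23 and Cdk19 in macrophages from −0.46 to 0.70. No partner passed the threshold under an alternative that kept both EV libraries. The direction of the ratios of Cdk8 to its partners held under every alternative run. Members called for a level difference were 2 for B cells and 1 for CD8+ T cells after thinning, 1 for Tregs and 1 for macrophages with RLE factors, and 1 for macrophages without filterByExpr. The share of all genes called under these settings is not reported here. In the main fit it was 65.2% for B cells, 27.6% for CD8+ T cells, 24.9% for Tregs and 39% for macrophages. Groups of 2 libraries and macrophage sums down to 1 UMI limit what can be detected.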
